A study of Homo sapiens with 6 samples.

Results

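After USP9X RNA was lowered in A673 cells, few changes in RNA levels passed the test, with 2 libraries a group. TXNIP, LCP1, KRT8 and RPN1 rose to between 1.8 and 2.5 times their mean FPKM in the controls. The oxidative stress gene NQO1, 4 metallothionein genes and others such as SULT1E1, APOE and PGF fell. These changes no longer passed when the libraries were not read as pairs, or with no filter on low values. None of 48 genes listed as activated and 22 listed as repressed by EWS-FLI1 passed the test, which 0.248% of all genes passed. At that share, the lack of a call in lists of this size says little. The comparison set 2 libraries of cells given esiUSP9X against 2 libraries of cells given esiGFP, paired by replicate number. Its members were the genes with at least 1 FPKM (sequenced fragments divided by transcript length and by library size) in at least 2 of the 4 libraries, without those listed at 0 in both esiGFP libraries. This left 11675 of the 25268 gene symbols in the deposited table.

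A673 is an established Ewing sarcoma line, a single line from a single tumour, and it carries the EWSR1-FLI1 fusion gene that drives this cancer. All cells were A673 cells harvested 72 h after transfection with an esiRNA, a pool of short interfering RNAs cut by an enzyme from a longer double-stranded RNA. Control cells received esiRNA against GFP, a jellyfish gene absent from human cells, and the others received esiRNA against USP9X or against FLI1. Each of the 3 groups had 2 libraries, and nothing in the labels says that a group's libraries came from separate cultures. P-values therefore measure only spread between these libraries, which may be technical. In the main fit the difference between replicate numbers is taken out first, and each gene's remaining spread is moderated by that of all genes. For MT2A the SE was 0.10 in that fit and 0.96 with the replicate number left in.

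USP9X is a large deubiquitinase. It takes ubiquitin chains off other proteins and so can keep them from the proteasome, and proteins reported as its substrates include apoptosis regulators such as MCL1 and signalling kinases. EWS-FLI1, the protein of the fusion gene, is a transcription factor that switches on some genes through DNA elements bound by the FLI1 part and holds others low. RNA levels report on transcripts only, and the amount of a protein that USP9X stabilises cannot be read from them. In bulk RNA, fewer cells with a transcript and less of it per cell cannot be told apart.

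The FPKM of the 4 libraries summed to between 793618 and 886267, and a single symbol, MIR6723, took between 33.2% and 42.6% of each sum. Between 11310 and 11707 genes reached 1 FPKM in a library. The number of reads per library is unknown, so no counting interval or detection limit can be given. Of 12 Ewing sarcoma markers, 11 reached 1 FPKM and summed to 2170 and 2390 FPKM in esiGFP and to 2040 and 2070 in esiUSP9X. Most of each sum came from CAV1 (1190 and 1340 FPKM in esiGFP) and CCND1 (472 and 459), while NKX2-2 had 16.2 and 13.9. CD99, the surface protein used to recognise this tumour, was listed at 0 in every library, which in this table does not show absence, for this or any other gene. The 6 epithelial markers summed to between 0.345 and 0.781 FPKM in the 4 libraries, with CDH1, KRT5 and KRT14 listed at 0. The 6 blood cell markers summed to at most 0.124 FPKM, the 6 endothelial ones to at most 0.231 and the 6 muscle ones to at most 0.0766.

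The targeted gene was checked first. USP9X RNA stood at 20.6 and 26.5 FPKM in esiGFP (mean 23.6 ± 4.21, SD, n = 2) and at 5.31 and 7.10 in esiUSP9X (6.21 ± 1.26, SD, n = 2). Both knockdown libraries lay below both control libraries, and the knockdown mean was 0.263 of the control mean. On the log2(FPKM + 1) scale USP9X fell by 1.77 (SE 0.10, 95% interval -2.00 to -1.54, adjusted p = 7e-04), with the same change of -1.77 in each pair. USP9X was the only deubiquitinase of its family to be called among 44 kept members. The other 43 lay between -0.24 and 0.31, and the median of the family was 0. CYLD, which removes linear and lysine-63 chains in inflammatory signalling, had the highest value (0.31, adjusted p = 0.36), and USP46 the lowest (-0.24, adjusted p = 0.47). None of the 7 other kept genes near USP9X on the X chromosome was called. DDX3X, the helicase gene beside it, had 158 and 187 FPKM in esiGFP and 175 and 180 in esiUSP9X (log2 change 0.05).

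The fusion partners did not pass the test. FLI1, whose reads in this line include the 3' part of the fusion, had 24.1 and 36.4 FPKM in esiGFP and 25 and 31.9 in esiUSP9X. The libraries overlapped, and the log2 change was -0.07 (95% interval -0.35 to 0.21, adjusted p = 0.89). It turned to 0.10 without esiGFP replicate 2. EWSR1, the gene of the 5' partner, had 105 and 117 FPKM against 108 and 113 (-0.01, 95% interval -0.26 to 0.23, adjusted p = 0.98). It turned to 0.05 under quantile normalization, to 0.08 without esiGFP replicate 2 and to 0.02 without esiUSP9X replicate 1.

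Few genes passed the test. With the replicate number as a block, limma called 29 of the 11675 genes at an adjusted p under 0.05 (0.248%). Of these, 7 were higher (0.0600%) and 22 lower (0.188%). With 2 libraries a group, this count does not show how many genes changed. All 29 had the same sign in both pairs, and in 24 the esiUSP9X libraries lay wholly on one side of the esiGFP libraries. Over all genes, both esiUSP9X libraries lay above both controls in 8.42% and below them in 7.61%. Without the block, limma called 0 genes, and 104 had an unadjusted p under 0.05, with 19 of the 29 among them. Every call therefore rests on reading the libraries as pairs. At an unadjusted p under 0.05 the blocked fit had 582 genes higher (4.99%) and 724 lower (6.20%).

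The typical gene barely differed between the groups. The median log2 change over all genes was -0.01, the 5th and 95th percentiles were -0.30 and 0.27, and 86.4% of genes lay within 0.25 of no change. On this scale, with a pseudocount of 1, USP9X had the largest fall among the called genes other than small RNAs. With a pseudocount of 0.1, DRAXIN lay lower (-2.21, against -1.91 for USP9X). The plot of change against level shows this narrow band, and the called genes other than small RNAs had control means between 0.37 and 195 FPKM.

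**Figure D1:**
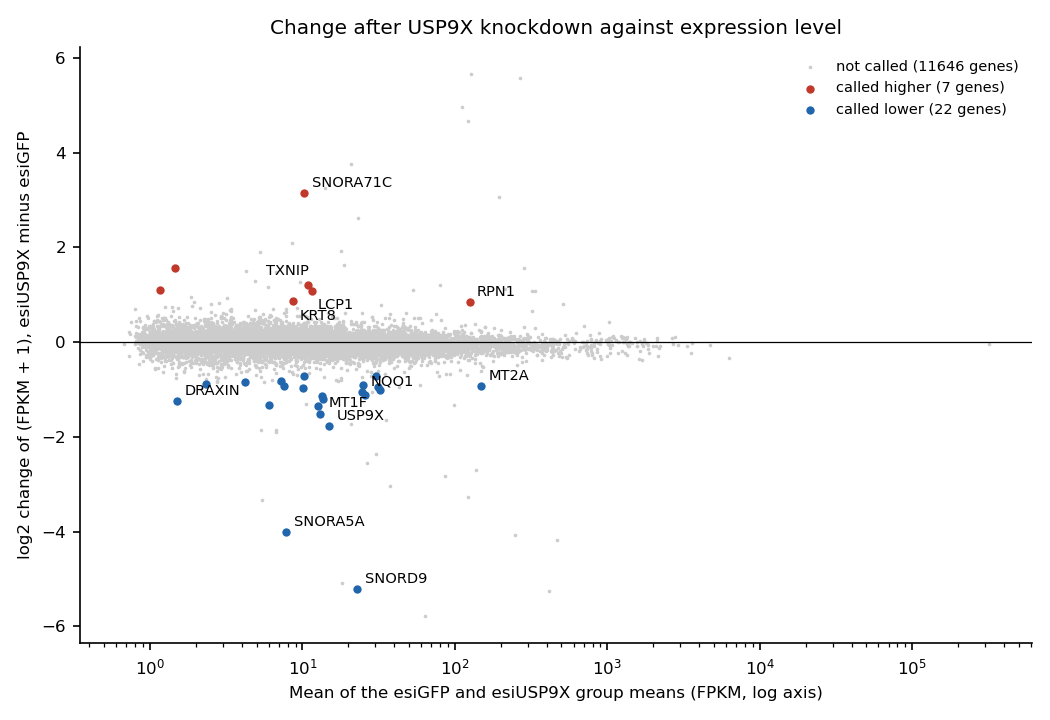
Log2 change of (FPKM + 1) in esiUSP9X minus esiGFP (vertical axis) against the mean FPKM of the groups (horizontal, log axis) for the 11675 genes, grey where not called, red where called higher (7) and blue where called lower (22). Most genes lie between -0.30 and 0.27, USP9X lies at -1.77 and TXNIP at 1.20.

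The changes of the pairs were weakly related. Across all genes the change in pair 1 and the change in pair 2 had a Pearson correlation of 0.00482 and a Spearman correlation of 0.303, a description over genes that are not independent of each other. The SD of the changes was 0.35 in pair 1 and 0.40 in pair 2. Higher in both pairs were 28.2% of genes and lower in both pairs 31.6%. A change of at least 1.5-fold in both pairs on the log2(FPKM + 1) scale was found for 26 genes upward (0.223%) and 38 downward (0.325%). Leaving small RNAs aside, 5 called and 8 uncalled genes went up by that much, and 19 called and 10 uncalled genes went down.

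**Figure D2:**
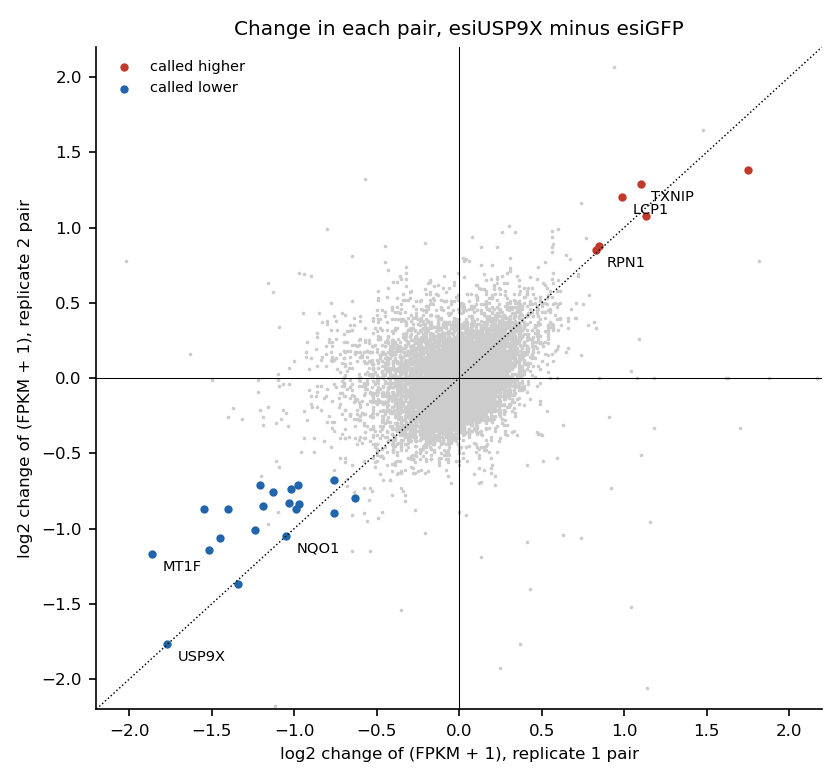
Log2 change of (FPKM + 1), esiUSP9X minus esiGFP, in the replicate 1 pair (horizontal axis) and the replicate 2 pair (vertical axis), with called genes in colour and the dotted line marking equal change. USP9X (-1.77 in each pair) and NQO1 (-1.05 in each) lie on the line, MT1F (-1.86 and -1.17) lies off it, and 47 genes lie beyond the axes at 2.2, among them the small RNAs SNORD9, SNORA5A and SNORA71C.

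The number of calls depended on single libraries. Without either esiGFP library the blocked fit called more genes than with all 6 libraries, the 29 among them. More calls from fewer libraries are no added support for the 29. Without esiUSP9X replicate 1 the fit kept USP9X and the small RNA SNORA57 of the 29. Without esiUSP9X replicate 2 it kept USP9X, MT1F, MT1G, DRAXIN and SMR3B of the 29. In these fits 1 group has a single library, which is assumed to vary like the rest. Fitting the 4 libraries alone left 6 of the 29, without esiFLI1 replicate 1 also 6, and without esiFLI1 replicate 2 only 4. All 29 kept their sign in each of these fits, which their same sign in both pairs largely fixed beforehand. The log2 change of USP9X lay between -1.81 and -1.73 in the fits that left out a library. It was -1.77 without the block, where USP9X was not called.

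TXNIP rose to 2.50 times its control mean. It encodes an arrestin-fold protein that binds thioredoxin and restrains glucose uptake, and its transcription follows glucose through MondoA and ChREBP, which bind a carbohydrate response element near its start. Its RNA had 6.53 and 5.89 FPKM in esiGFP (6.21 ± 0.453, SD, n = 2) and 15.2 and 15.9 in esiUSP9X (15.5 ± 0.508, SD, n = 2). The groups lay far apart. The log2 change was 1.20 (SE 0.11, 95% interval 0.95 to 1.44, adjusted p = 0.0084), with 1.10 and 1.29 in the pairs. Over the alternatives the log2 change lay between 1.10 and 1.31. The call ended without the block and with no filter on low values. It also ended without esiUSP9X replicate 1, esiUSP9X replicate 2 or esiFLI1 replicate 2.

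The TXNIP promoter is shown because it holds the element by which Mondo factors are known to act on this gene. The 250 bases before the start, from RefSeq on GRCh38.p14, lie at chr1:145996580-145996829 on the minus strand. Capitals mark the element, searched on both strands as CACGNG, a spacer of 5 bases of any kind, and CACGNG again.
TXNIP: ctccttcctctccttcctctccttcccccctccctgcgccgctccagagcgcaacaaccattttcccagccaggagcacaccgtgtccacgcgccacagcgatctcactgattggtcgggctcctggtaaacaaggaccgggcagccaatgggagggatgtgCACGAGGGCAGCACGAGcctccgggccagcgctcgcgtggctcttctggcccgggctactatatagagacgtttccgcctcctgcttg
These letters occur in 16 of 35116 promoters of that length (0.0456%). They were chosen with earlier results of these data, or this promoter, known, so the match in TXNIP was no test. Of the 16 genes, 11 were kept, and TXNIP was the only one called, where 0.248% of all genes were called. The other 10 lay between -0.29, for the collagen prolyl hydroxylase P4HA1, and 0.11, for AKAP10. ARRDC4, another known Mondo target, was not among the 16, so these genes do not stand for Mondo targets. A match describes the letters only and shows no binding.

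Other Mondo targets and the arrestin relatives of TXNIP did not reach the threshold. Of 13 kept genes in that list, TXNIP was called, where 0.248% of all genes were called. At an unadjusted p under 0.05, 3 were higher, TXNIP among them, and 2 lower (23.1% and 15.4%, against 4.99% and 6.20% of all genes). The median was 0.11. ARRDC3, an arrestin that directs membrane receptors to degradation, had 10.1 and 16.3 FPKM in esiGFP and 15.9 and 21.7 in esiUSP9X (log2 change 0.50, adjusted p = 0.16). ARRDC4, another arrestin known as a Mondo target, had 1.04 and 1.41 against 1.58 and 2.19 (0.37, adjusted p = 0.32). ARRDC3 overlapped between the groups and ARRDC4 did not. On the lower side stood PFKFB3, which makes the activator of phosphofructokinase (-0.36, adjusted p = 0.29), and KLF10, a zinc finger repressor (-0.27, adjusted p = 0.36). The Mondo genes MLXIP (-0.01) and MLX (0.01) lay at no change, and the glucose transporter SLC2A1 lay at 0.20 (adjusted p = 0.61).

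LCP1, or L-plastin, bundles actin filaments and is best known from white blood cells and from some tumours. It had 7.47 and 6.49 FPKM in esiGFP (6.98 ± 0.697, SD, n = 2) and 15.8 and 16.2 in esiUSP9X (16 ± 0.245, SD, n = 2). It rose by 1.09 (SE 0.11, adjusted p = 0.0084), with 0.99 and 1.20 in the pairs, and without either esiUSP9X library the adjusted p was 0.084 or 0.12. The blood cell marker PTPRC, the leukocyte CD45 gene, was at most 0.0148 FPKM in the 4 libraries and CD3E was listed at 0, which alone does not show absence. The other plastins, looked up after these values were seen, were not called. PLS3, the plastin of most solid tissues, had 73.8 and 97.3 FPKM against 72.1 and 86.5 (-0.10, adjusted p = 0.80), and PLS1, the intestinal one, lay at 0.29 (adjusted p = 0.41).

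KRT8, the keratin that pairs with KRT18 in simple epithelia, rose from 7.63 and 4.12 FPKM to 14.5 and 8.39. Each esiUSP9X library lay above both controls, and the pairs differed by 0.85 and 0.88 (fitted change 0.86, SE 0.10, adjusted p = 0.014). Its partner KRT18, looked up afterwards, was far more abundant and was not called, with 191 and 144 FPKM in esiGFP and 215 and 153 in esiUSP9X (0.13, adjusted p = 0.74). Of the epithelial markers, EPCAM stood at 0.108 to 0.362 FPKM in the 4 libraries, and the cadherin gene CDH1 was listed at 0, with the same limit.

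RPN1 encodes ribophorin I, a subunit of the oligosaccharyltransferase that attaches sugar chains to proteins entering the endoplasmic reticulum. It rose from 99.8 and 80.0 FPKM to 179 and 145, which is 0.84 on the log2 scale (95% interval 0.62 to 1.07, adjusted p = 0.014) and 0.83 and 0.85 in the pairs. None of the 9 other subunits, looked up afterwards, was called, and they lay between -0.33 for MAGT1 and -0.02 for OST4. RPN2, the gene of ribophorin II, had 243 and 192 FPKM against 209 and 159 (-0.25, adjusted p = 0.40), and the catalytic subunits STT3A and STT3B lay at -0.20 and -0.08.

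The remaining rise outside the small RNAs was ABHD14A-ACY1, a readthrough transcript of neighbouring genes on the same strand. It had 0.741 and 0 FPKM in esiGFP and 2.80 and 1.12 in esiUSP9X (log2 change 1.10, adjusted p = 0.014). Its reads are shared with ABHD14A (-0.26, adjusted p = 0.55) and ACY1 (-0.64, adjusted p = 0.34), so its value is uncertain, and the call ended with a pseudocount of 0.1 (adjusted p = 0.10).

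Further genes on the higher side came close without passing, and their values are given without a verdict. NOVA1, a neuronal splicing factor, had 2.46 and 2.24 FPKM in esiGFP and 4.72 and 4.17 in esiUSP9X (0.70, adjusted p = 0.062). DPCD had 36.7 and 37.7 against 62.3 and 53.3 (0.62, adjusted p = 0.078), and MAB21L3 had 1.46 and 1.25 against 2.90 and 2.88 (0.73, adjusted p = 0.081). APELA, a peptide ligand of the apelin receptor, lay at 0.63, SLITRK5, a neuronal membrane protein, at 0.61, SYNE2, a nuclear envelope linker, at 0.73, and CAPN6, a calpain without protease activity, at 0.75, with adjusted p between 0.081 and 0.084. The groups did not overlap for any of these 7, which were picked for a small p. Over all genes, 8.42% lay wholly above the controls. The readthroughs URGCP-MRPS24 (1.30, adjusted p = 0.065) and DYX1C1-CCPG1 (0.95, adjusted p = 0.070) and the pseudogene FAM133DP (1.5, adjusted p = 0.051) share sequence with other genes and are uncertain.

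NQO1 fell by the same amount in each pair. It encodes a quinone reductase that is a standard target of NRF2, the transcription factor of the oxidative stress response. Its RNA had 33.7 and 33.1 FPKM in esiGFP (33.4 ± 0.427, SD, n = 2) and 15.7 and 15.5 in esiUSP9X (15.6 ± 0.151, SD, n = 2). The replicates nearly coincided and the groups were well separated, with a ratio of means of 0.467. NQO1 fell by 1.05 (SE 0.10, 95% interval -1.27 to -0.83, adjusted p = 0.0084), and by 1.05 in each pair. The adjusted p was 0.11 without esiUSP9X replicate 1, 0.10 without replicate 2 and 0.056 without esiFLI1 replicate 2.

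Among 31 kept NRF2 and oxidative stress genes, NQO1 alone was called. At an unadjusted p under 0.05, 8 were lower (25.8%, against 6.20% of all genes) and 0 were higher, and 18 were lower in both pairs against 2 higher in both. The lower count was 3 (9.68%) without esiGFP replicate 2 or without esiUSP9X replicate 1 and 5 without esiUSP9X replicate 2, where the shares over all genes were 5.63%, 3.40% and 5.94%. The median was -0.17, against -0.01 over all genes, and it lay between -0.20 and -0.10 over the alternatives. NFE2L2, the gene of NRF2 itself, had 53.5 and 82.5 FPKM in esiGFP and 45.7 and 60.0 in esiUSP9X (-0.34, adjusted p = 0.27). The pirin gene PIR had 63.3 and 61.4 against 48.2 and 49.6 (-0.35, adjusted p = 0.25), with no overlap. The peroxidase GPX1 lay at -0.40 (adjusted p = 0.28), sulfiredoxin SRXN1 at -0.35 (0.29) and peroxiredoxin PRDX1 at -0.35 (0.34). The thioredoxin reductase TXNRD1 lay at -0.20 and KEAP1, which holds NRF2 in check, at -0.17.

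Of the 5 kept metallothioneins, 4 fell, against 0.188% of all genes called lower, and MT1E did not pass the test. These are small cysteine-rich proteins that bind zinc and copper, and their genes, clustered on chromosome 16, are switched on by the zinc sensor MTF1 through metal response elements. MT2A, the most abundant, had 303 and 87.4 FPKM in esiGFP and 152 and 47.4 in esiUSP9X (log2 change -0.93, SE 0.10, adjusted p = 0.014). MT1X had 76.4 and 12.6 against 33.0 and 6.57 (-1.02, SE 0.12, adjusted p = 0.014). In both genes replicate 1 was the higher in either group, and the groups overlapped while each pair showed a fall. MT1F had 32.0 and 8.91 against 8.09 and 3.42 (-1.51, SE 0.17, adjusted p = 0.014), and MT1G had 14.9 and 3.48 against 4.53 and 1.04 (-1.33, SE 0.15, adjusted p = 0.014). Only MT1F was without overlap between the groups. MT1E had 19.3 and 8.17 against 8.47 and 3.94 and missed the threshold (-1.0, adjusted p = 0.12).

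The other 11 kept genes of zinc handling held no call. They lay between -0.25, for the importer SLC39A1, and 0.10, for the importer SLC39A14 and the transporter SLC30A5, and MTF1 lay at -0.03 (3.38 and 3.19 FPKM against 3.43 and 2.99). SLC30A1, a zinc exporter that MTF1 also controls, had 10.6 and 10.5 FPKM in esiGFP and 9.51 and 9.60 in esiUSP9X (-0.13, adjusted p = 0.75). Metallothionein genes are near-identical copies, and how the authors' counting split reads among them is nowhere stated in the labels, which leaves single members uncertain. Leaving out a library ended calls here too, with adjusted p of 0.22 and 0.13 for MT2A and 0.25 and 0.16 for MT1X without esiUSP9X replicate 1 or 2. After a correction for transcript GC content and length the changes were -0.88 for MT2A, -1.47 for MT1F, -1.27 for MT1G and -0.99 for MT1X, close to those without it. MT2A remained called (adjusted p = 0.027), and MT1F (0.056), MT1G (0.064) and MT1X (0.11) did not.

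The promoters of MT2A and MT1X are shown because these genes moved together and the elements that make them a group can be seen. They are the 250 bases before each start, from RefSeq on GRCh38.p14, at chr16:56608334-56608583 and chr16:56682220-56682469, both on the plus strand. Capitals mark the metal response element core, searched as TGCACNC or TGCGCNC on both strands.
MT2A: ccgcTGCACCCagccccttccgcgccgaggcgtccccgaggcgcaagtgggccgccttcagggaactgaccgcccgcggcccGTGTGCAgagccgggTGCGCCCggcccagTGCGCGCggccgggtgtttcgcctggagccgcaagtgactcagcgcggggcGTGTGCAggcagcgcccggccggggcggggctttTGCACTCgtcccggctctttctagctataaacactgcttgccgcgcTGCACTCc
MT1X: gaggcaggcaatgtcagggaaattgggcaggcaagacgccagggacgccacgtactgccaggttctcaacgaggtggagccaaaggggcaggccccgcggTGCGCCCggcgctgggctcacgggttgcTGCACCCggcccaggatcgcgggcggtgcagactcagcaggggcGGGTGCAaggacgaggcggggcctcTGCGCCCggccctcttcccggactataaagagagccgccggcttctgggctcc
The MT2A window held 7 sites and the MT1X window 4, none overlapping. At least 1 site was found in 8719 of 35116 promoters of that length (24.8%), so a single match is common and shows no binding.

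**Figure D3:**
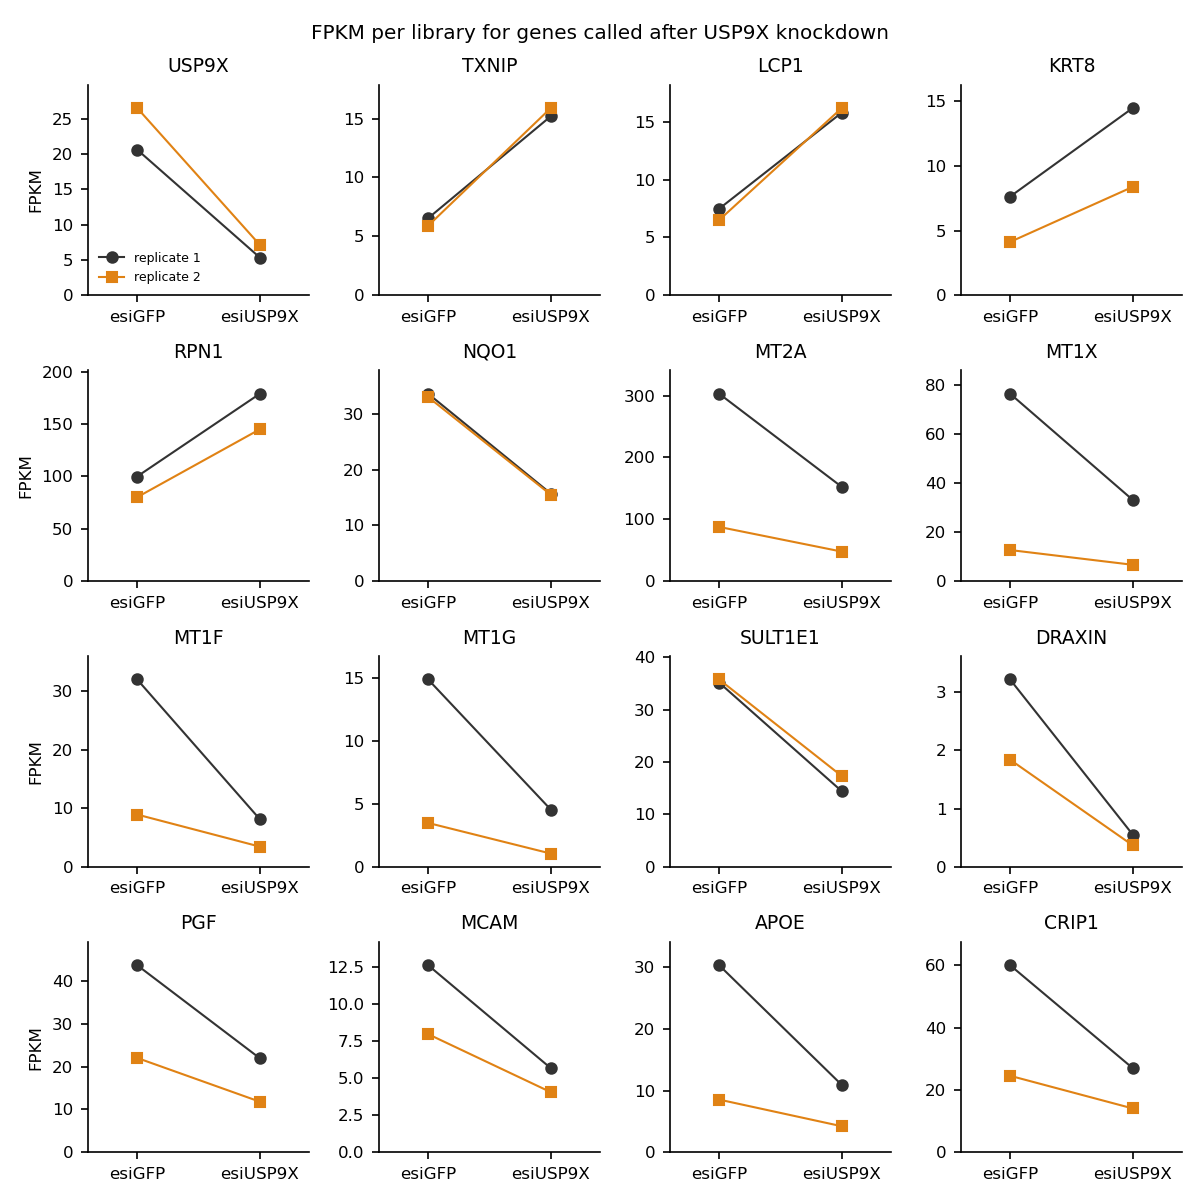
FPKM per library (vertical axes, each from 0) in esiGFP and esiUSP9X for 16 called genes, with a line joining the libraries of the same replicate number. TXNIP, LCP1 and NQO1 have nearly equal replicates, while MT2A (303 and 87.4 FPKM in esiGFP) and MT1X (76.4 and 12.6) differ between replicates within a group and fall in each pair.

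DRAXIN, APOE, PGF and SMR3B, which encode secreted proteins, were also called lower. DRAXIN, a secreted axon guidance protein that also dampens Wnt signalling, fell from 3.22 and 1.84 FPKM to 0.548 and 0.365 (-1.25, SE 0.14, adjusted p = 0.014). APOE, which carries lipids, went from 30.3 and 8.55 to 10.9 and 4.23 (-1.13, SE 0.14, adjusted p = 0.014), with overlapping groups. PGF, a growth factor of the VEGF family, fell from 43.6 and 22 to 21.9 and 11.8 (-0.90, SE 0.10, adjusted p = 0.014). Its relatives, looked up afterwards, did not pass the test, with VEGFA at 30.5 and 26.4 FPKM against 34.0 and 28.0 (0.12, adjusted p = 0.72), VEGFB at -0.12 and the receptor FLT1 at -0.04. SMR3B, a proline-rich protein known from saliva, fell from 27.1 and 12.6 to 8.63 and 6.45 (-1.21, adjusted p = 0.018).

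Enzymes, adaptors and membrane proteins accounted for the other falls. SULT1E1, the sulfotransferase that inactivates oestrogens, fell from 35.2 and 35.8 FPKM to 14.4 and 17.3 (-1.12, SE 0.12, adjusted p = 0.014), and its replicates were close together. MCAM, the adhesion protein CD146, fell from 12.6 and 7.96 to 5.66 and 4.05 (-0.93, adjusted p = 0.014). DACT2, which binds the Wnt adaptor Dishevelled, fell from 18.3 and 9.27 to 7.31 and 5.28 (-0.96, adjusted p = 0.029), and its relative DACT1 lay at 0.18. CRIP1, a small LIM-domain protein that binds zinc, fell from 60.1 and 24.6 to 27.0 and 14.1 (-0.95, adjusted p = 0.014), with overlapping groups. NSG1, a vesicle protein of neurons, fell from 4.15 and 2.53 to 1.54 and 1.11 (-0.88, adjusted p = 0.031).

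A last 4 falls lay beyond the 15 that the naming rule takes and are named after their values were seen. F2RL2, a protease-activated receptor, fell from 14.1 and 11.9 FPKM to 7.91 and 7.01 (-0.72, adjusted p = 0.029). NTSR1, a neurotensin receptor, fell from 7.27 and 4.18 to 3.19 and 2.16 (-0.85, adjusted p = 0.035). PALM3, a paralemmin of the plasma membrane, fell from 9.56 and 9.46 to 5.24 and 4.60 (-0.83, adjusted p = 0.024), and ABHD3, a phospholipase, from 36.6 and 39.3 to 23.3 and 22.2 (-0.71, adjusted p = 0.031). None of the 4, all of them called, overlapped between the groups, where 7.61% of all genes lay wholly below the controls.

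The replicates of a group differed in a way that followed base composition. Across the 11488 genes matched to a transcript (98.4%), the log2 difference between the esiGFP replicates had a Spearman correlation of -0.825 with transcript GC content. The change after knockdown had -0.368 in pair 1, 0.147 in pair 2 and -0.153 in the fit, as a description over genes. Leaving out small RNAs, the 19 genes called lower had a median GC content of 54.9% and the 5 called higher 50.7%, against 47.7% over all genes. With a correction for GC content and length, an alternative chosen after seeing the data, 4 genes were called higher and 10 lower. Of the 29, 13 remained called, namely USP9X, TXNIP, LCP1, KRT8, RPN1, APOE, SULT1E1, NQO1, DACT2, CRIP1, MCAM, MT2A and PGF.

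Small RNA symbols gave 5 of the 29 calls, from 96 kept, where 0.248% of all genes were called. SNORA57 fell from 23.8 and 13.3 FPKM to 8.79 and 4.55 (-1.35, adjusted p = 0.0077). SNORD9 (17.4 and 73.6 FPKM in esiGFP) and SNORA5A (19.2 and 11.8) were listed at 0 in both esiUSP9X libraries. SNORA71C (3.02 and 0 against 28.0 and 9.73) and SNORA74A (0.421 and 0 against 3.77 and 1.6) were called higher. These are snoRNAs shorter than the usual fragment of such a library and lie inside host genes, so FPKM for them are uncertain, and no fold is given against a listed 0.

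The rule left out 4 symbols listed at 0 in both esiGFP libraries, and none can be read as a rise. EEF1A1, the translation elongation factor, was listed at 3200 and 3580 FPKM in esiUSP9X, FN1, fibronectin, at 890 and 900, SNORD35A at 289 and 285 and MIR378J at 48.7 and 62.6. EEF1A1 is among the most abundant transcripts of human cells, so its listed 0 in the controls cannot be read as absence. At the edge of the rule, RMDN2 and GPR176 were just inside, with a second-highest value of 1.00213 and 1.00135 FPKM, and RAMP2-AS1 (0.999239) and ZMAT4 (0.99842) just outside.

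No member of the lists of known EWS-FLI1 targets was called in esiUSP9X, where 0.248% of all genes were called. Of 48 kept genes known to be activated by the fusion, 9 were higher and 6 lower at an unadjusted p under 0.05 (18.8% and 12.5%, against 4.99% and 6.20% of all genes), with a median of 0.09. The counts were 4 and 1 without esiGFP replicate 1, 6 and 5 without esiGFP replicate 2, 6 and 1 without esiUSP9X replicate 1, and 5 and 2 without esiUSP9X replicate 2. The receptor tyrosine kinase KIT had 1.63 and 1.86 FPKM in esiGFP and 2.99 and 3.50 in esiUSP9X (0.63, adjusted p = 0.086). NR0B1, a nuclear receptor and a standard readout of the fusion, had 61.4 and 27.6 against 84.2 and 41.1 (0.50, adjusted p = 0.12). The neuropeptide receptor NPY1R lay at 0.37 (adjusted p = 0.22), PPP1R1A, a phosphatase inhibitor, at 0.40 (0.28) and IGF1 at 0.41 (0.24). On the lower side were NPY, with 172 and 54.0 FPKM against 76.6 and 47.0 (-0.68, adjusted p = 0.25), TNFAIP6 (-0.40, 0.23) and LOXL1 (-0.48, 0.34). NKX2-2, which represses genes on behalf of the fusion, had 16.2 and 13.9 FPKM against 14.2 and 10.8 (-0.25, adjusted p = 0.43).

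Of 22 kept genes known to be held low by the fusion, 6 were higher and 2 lower at an unadjusted p under 0.05 (27.3% and 9.09%, against 4.99% and 6.20% of all genes). The counts were 2 and 3 without esiGFP replicate 2, 3 and 3 without esiUSP9X replicate 1, and 3 and 4 without esiUSP9X replicate 2. The median was -0.02, and it ran from -0.04 with a filter of 5 FPKM to 0.08 without esiGFP replicate 2. NT5E, the surface enzyme CD73 that makes adenosine, had 24.1 and 20.3 FPKM in esiGFP and 10.6 and 13.5 in esiUSP9X (-0.83, adjusted p = 0.086). CTGF, a matricellular target of YAP, had 28.5 and 27.2 against 20.5 and 18.5 (-0.50, adjusted p = 0.11). The collagen crosslinker LOX had 3.02 and 4.27 against 4.77 and 6.17 (0.48, adjusted p = 0.19), and the receptor TGFBR2 had 14.3 and 14.2 against 18.2 and 18.5 (0.34, adjusted p = 0.25). For these 4 genes, named for a low p, the groups did not overlap, with 2 below and 2 above the controls. Over all genes, 7.61% lay wholly below the controls and 8.42% wholly above.

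The esiFLI1 libraries were compared with the same esiGFP libraries, so the comparisons share their controls and are only set side by side. In that comparison limma called 2148 genes higher (18.4%) and 2650 lower (22.7%). Of the 48 activated targets it called 5 higher and 33 lower (median -0.66), and of the 22 repressed targets 18 higher and 2 lower (median 2.13). NR0B1 had 14.3 and 5.46 FPKM in esiFLI1, NPY1R 36.4 and 43.5, NT5E 231 and 295 and LOX 76.8 and 123.

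Of the 24 called genes that are not small RNAs, 8 were called in the same direction in esiFLI1 and 8 were not called. Another 8 were called in the opposite direction, among them USP9X, the target of the knockdown itself. Over all genes, esiFLI1 had 18.4% called higher and 22.7% lower. RPN1 had 184 and 132 FPKM in esiFLI1 (log2 change against esiGFP 0.79, SE 0.10) and KRT8 21.3 and 12 (1.36), beside 0.84 and 0.86 in esiUSP9X. APOE had 74.4 and 29.5 FPKM in esiFLI1 (1.47), PGF 94.7 and 44.6 (1.05), CRIP1 108 and 53.1 (0.96), MCAM 24.2 and 15.8 (0.90) and F2RL2 61.4 and 56.5 (2.10), where the esiUSP9X values were all negative. TXNIP (7.38 and 7.80 FPKM, 0.25), LCP1 (8.29 and 8.13, 0.21), NQO1 (41.3 and 37.3, 0.23) and MT2A (288 and 77.1, -0.13) were not called in esiFLI1. USP9X itself had 26.2 and 37.7 FPKM there (0.41, adjusted p = 0.012).

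**Figure D4:**
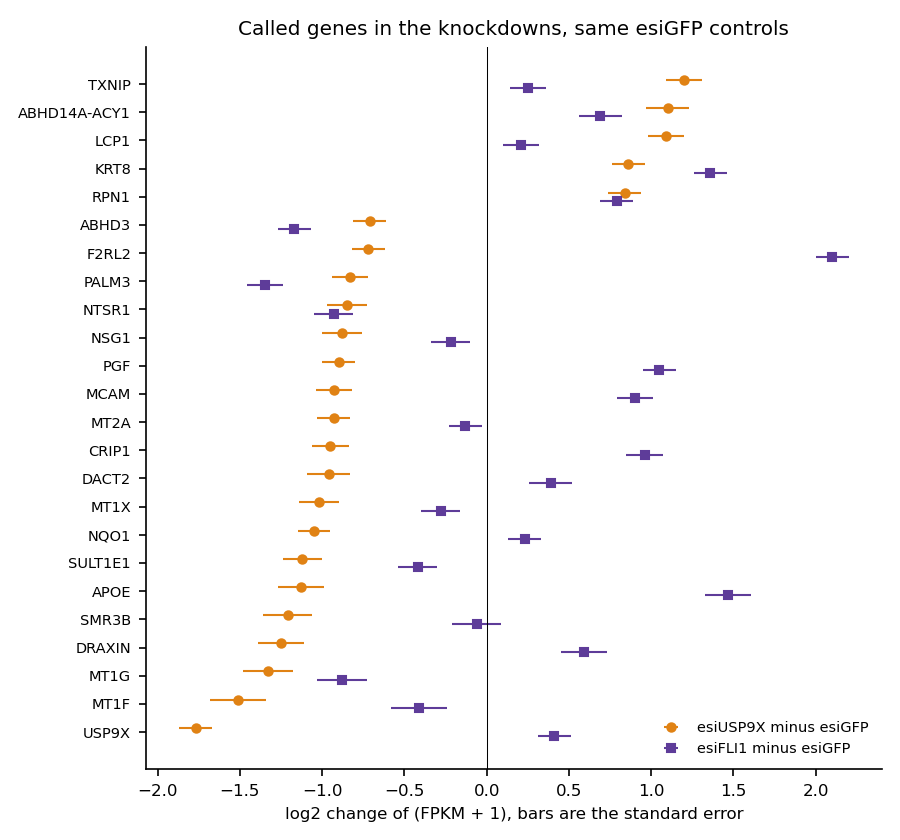
Log2 change of (FPKM + 1) with its standard error for the 24 called genes that are not small RNAs, in esiUSP9X (circles) and esiFLI1 (squares) against the same esiGFP libraries. TXNIP lies at 1.20 and 0.25, RPN1 at 0.84 and 0.79, and APOE at -1.13 and 1.47.

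Genes for proteins reported as substrates or partners of USP9X held no call at the RNA level. Of 36 kept, 3 were higher and 2 lower at an unadjusted p under 0.05 (8.33% and 5.56%), where all genes had 4.99% and 6.20%, and the median was -0.01. MAP3K5, the stress kinase ASK1, had 3.69 and 4.30 FPKM against 4.99 and 6.26 (0.40, adjusted p = 0.23). The survival factor MCL1 had 70.9 and 96.2 against 61.6 and 76.4 (-0.26, adjusted p = 0.36), and BIRC5, survivin, lay at -0.24 (0.42).

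Of 45 genes of DNA replication 0 were called, and more had values below 0 than above. At an unadjusted p under 0.05, 11 were lower (24.4%, against 6.20% of all genes) and 0 higher, 30 were lower in both pairs against 4 higher, and the median was -0.13. The clamp PCNA had 383 and 460 FPKM against 319 and 328 (-0.38, adjusted p = 0.24), and the helicase subunits MCM3, MCM6 and MCM4 lay at -0.33, -0.30 and -0.29. The lower count was 3 (6.67%) without esiUSP9X replicate 1 and 4 (8.89%) without esiGFP replicate 1, esiGFP replicate 2 or esiUSP9X replicate 2. The shares over all genes in these fits lay between 3.40% and 5.94%. Under quantile normalization the lower count was 5 and the median -0.08. Of 41 genes of G2 and mitosis, 1 was higher and 1 lower at that p, and the median was 0.04, which ran from -0.03 to 0.08 over the alternatives.

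Of 35 proteasome subunits 0 were called, 22 were lower in both pairs and 0 higher in both (31.6% and 28.2% of all genes). The median was -0.10 and moved to -0.04 under quantile normalization, and 4 were lower at an unadjusted p under 0.05 (11.4%, against 6.20% of all genes), a count of 0 without esiGFP replicate 2 or without esiUSP9X replicate 2 and of 2 without esiUSP9X replicate 1. PSMB1, a core subunit, had 510 and 553 FPKM against 456 and 416 (-0.29, adjusted p = 0.36). Cytosolic ribosomal proteins, which share reads with pseudogenes, had 3 lower and 0 higher of 77 at that p and a median of -0.01.

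The Notch list had the lowest median of the lists in the plot of list members, -0.23 over 15 kept genes. None was called, and 6 were lower at an unadjusted p under 0.05 (40.0%, against 6.20% of all genes). That count was 1 (6.67%) without esiUSP9X replicate 1, 3 without esiGFP replicate 1, and 7 without esiGFP replicate 2 or without esiUSP9X replicate 2. LFNG, which adds sugars to Notch receptors, had 11.2 and 6.90 FPKM against 7.54 and 4.23 (-0.55, adjusted p = 0.15). The target gene HES1 had 58.7 and 54.4 against 48.1 and 45.6 (-0.27, adjusted p = 0.42). NOTCH3 (-1.19 in pair 1 and -0.26 in pair 2) and HES4 (-1.50 and -0.01) drew on pair 1. The median was -0.14 with the GC and length correction and -0.07 with a filter of 5 FPKM.

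Lists for metabolism, matrix and the cytoskeleton likewise held 0 calls. Of 35 cholesterol and fatty acid genes, 6 were higher and 1 lower at an unadjusted p under 0.05 (17.1% and 2.86%, against 4.99% and 6.20% of all genes). The counts turned to 1 and 4 without esiGFP replicate 2, and were 3 and 0 without esiUSP9X replicate 1 and 2 and 2 without esiUSP9X replicate 2. INSIG1, which retains the sterol sensor in the endoplasmic reticulum, stood at 42.6 and 35.6 FPKM against 53.1 and 51.2 (0.41, adjusted p = 0.25). FDFT1, squalene synthase, had 139 and 144 against 169 and 182 (0.31, adjusted p = 0.29). The median of the list, 0.07, was -0.01 in pair 1 and 0.16 in pair 2. Of 33 glycolysis and hypoxia genes, 0 were higher and 6 lower at that p (18.2%, median -0.09). Only 1 was lower (3.03%) without esiUSP9X replicate 1 and 4 without esiUSP9X replicate 2. Among the 6 were the glucose transporter SLC2A3 (-0.39, adjusted p = 0.23) and the glycolytic enzyme PGK1, with 398 and 359 FPKM against 324 and 298 (-0.28, adjusted p = 0.32).

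Of 36 extracellular matrix genes, 5 were higher and 9 lower at that p (13.9% and 25%, against 4.99% and 6.20% of all genes). The lower count was 6 without esiGFP replicate 1, 2 without esiUSP9X replicate 1 and 14 without esiUSP9X replicate 2. The list median was -0.17, but it was -0.19 in pair 1 and 0.08 in pair 2, and 0.02 without esiUSP9X replicate 1. TIMP2, a protease inhibitor, had 77.9 and 45.3 FPKM against 48.0 and 35.7 (-0.51, adjusted p = 0.16). Of 37 actin and focal adhesion genes, 1 was higher and 7 lower (2.70% and 18.9%). The lower count was 4 without esiGFP replicate 2 and 2 (5.41%) without esiUSP9X replicate 1. TAGLN, an actin-binding protein of smooth muscle, had 25 and 19.7 FPKM against 16.7 and 9.76 (-0.75, adjusted p = 0.13), and ACTA2 70.3 and 69.5 against 54.9 and 44.7 (-0.49, adjusted p = 0.21). Of 13 replication-dependent histone genes, 3 were higher (23.1%) and 0 lower, and 2 were lower without esiGFP replicate 2 or without esiUSP9X replicate 2. HIST1H2BC stood at 6.21 and 3.36 FPKM against 9.32 and 5.71 (0.57, adjusted p = 0.095). Histone genes are near-identical copies and uncertain one by one.

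**Figure D5:**
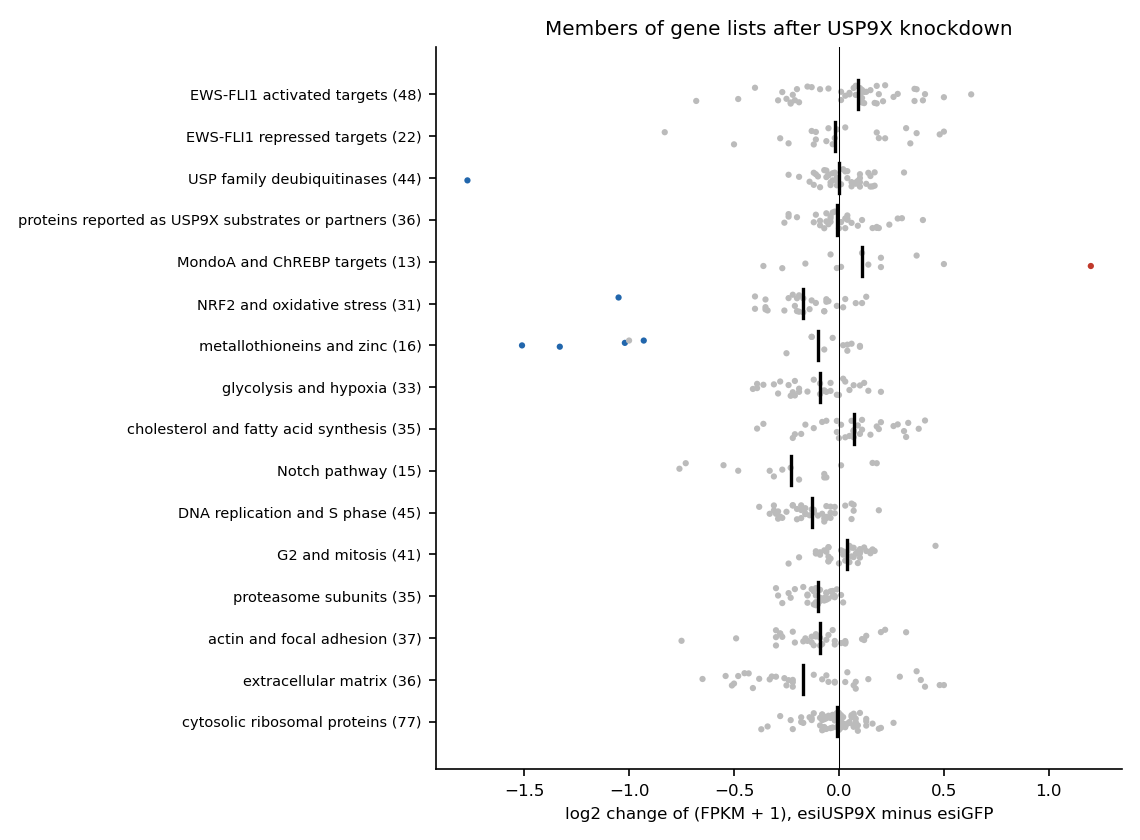
Log2 change of (FPKM + 1), esiUSP9X minus esiGFP, for each kept member of 16 gene lists (number kept in brackets), with called members in colour and a black bar at the list median. Called members are USP9X in its family, TXNIP among the Mondo targets, NQO1 among the NRF2 genes and 4 metallothioneins, and the medians run from -0.23 (Notch) to 0.11 (Mondo targets).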

How the data were processed

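Per the labels' protocols, strand-specific libraries were built from 2 µg of total RNA after removal of ribosomal RNA and read as single ends of 75 nt. The submitters' processing notes name TopHat, Cufflinks, Cuffdiff, hg19 and GRCh37, without versions. The deposited FPKM were made by the authors, per gene symbol and library. Which annotation was used, and whether strand was, is not given in the sources used here. Overlapping genes are therefore uncertain. No read counts were used, and low values showed no steps of single reads (fullest bin 0.817% of 979 pairs), so depth is unknown and no count test was run.

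The table held 25268 symbols, after its stray last line was left out (1 line). All columns matched a sample (0 did not). Of 11679 genes passing the FPKM rule, 4 at 0 in both esiGFP libraries were left out. Limma 3.58.1 (R 4.3.3; lmFit, then eBayes with trend) was run on log2(FPKM + 1) of all 6 libraries, with the replicate number as a block, and p-values were two-sided and adjusted by Benjamini-Hochberg over 11675 genes. Fold changes on this scale understate those of low genes. The procedure was tested on simulated data.

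The labels number replicates 1 and 2 in each group but state no shared day. Libraries were paired by these numbers, as the rule of the comparison sets. Deviations of same-numbered libraries correlated at 0.603 (esiGFP and esiUSP9X), 0.697 (esiGFP and esiFLI1) and 0.660 (esiFLI1 and esiUSP9X). That they deviate together was known from earlier results of these data when the block was chosen. What they shared was not tested. The blocked fit had 2 residual and 6.47 prior degrees of freedom.

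The members, the 39 gene lists (1076 genes) and the motif letters were chosen with earlier results of these data, or these promoters, known. Named genes were USP9X, FLI1 and EWSR1, up to 15 called genes per direction by size, the next genes by p to fill a direction, and for lists the called or lowest-p members. Relatives of called genes were added after their values were seen. The values of 1 gene are not reported here. GC content and length came from GENCODE v29 transcripts, used for these only. MT1F, MT1G and MT1E had no entry in the promoter table. Alternatives were no block, the 4 libraries alone, a pseudocount of 0.1, a filter of a mean of 5 FPKM, no filter, quantile and median ratio scaling, eBayes without a trend, each library left out, and a GC and length correction.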

Additional observations from a re-analysis of the deposited data

How the results depend on the processing

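The main fit called 7 genes higher and 22 lower. Without the replicate block limma called 0 higher and 0 lower (104 at an unadjusted p under 0.05), and with no filter on low values 0 and 0 (1583 at that p, and USP9X at an adjusted p of 0.27). The 4 libraries alone gave 3 and 5, a pseudocount of 0.1 gave 4 and 20, and the GC and length correction with the block, added after seeing the data, gave 4 and 10. Leaving out a library gave 2 to 104 higher and 4 to 191 lower. Quantile normalization (8 and 21), median ratio scaling (7 and 23), eBayes without a trend (9 and 22) and a filter of 5 FPKM (5 and 16) stayed within 1.5 times of the main counts. The 29 called genes kept their direction under every alternative in which they were tested. Their same sign in both pairs largely fixed this beforehand. FLI1 ran from -0.24 to 0.10 and EWSR1 from -0.11 to 0.08 over the left-out libraries. FLI1 turned positive without esiGFP replicate 2 (0.10), and EWSR1 did so under quantile normalization (0.05), without esiGFP replicate 2 (0.08) and without esiUSP9X replicate 1 (0.02), in each case without a call. The cause of these differences between settings was not tested. With 2 libraries a group and an unknown depth, a gene that missed the threshold is not shown to be unaffected.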
